A study of Mus musculus with 2 samples.

Results

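The genes described here are 37 genes of glucose uptake, glycolysis, the pyruvate dehydrogenase complex and the tricarboxylic acid (TCA) cycle, out of 21853 protein-coding genes of the mouse annotation GENCODE M21. They were chosen by name, as the steps that carry glucose to pyruvate, lactate or the cycle. Of the 37 genes, 24 act from glucose entry to lactate and are called glycolytic below, and 13 act inside the mitochondrion, 3 in pyruvate dehydrogenase and 10 in the cycle. For 8 glycolytic steps the list holds isoforms encoded by separate genes, 13 of them usual in blood cells and 7 better known from other tissues, and the remaining 17 genes have no such counterpart in the list.

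The data were ATAC-seq peaks, which mark stretches of open chromatin cut by a transposase, from primary haematopoietic stem cells (HSC) taken from C57BL/6J mice at the adult stage, 5 to 6 weeks old, with no treatment named. There were 2 libraries in 1 group, so no condition could be compared. Replicate 2 was made from 50000 cells, no cell number was given for replicate 1, sex was not collected, no source used here gives the markers of the sort, and both libraries carried the same donor identifier. Whether they came from separate animals is therefore unknown, and the spread between them may be technical.

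A promoter peak here means a merged peak region whose summit lies at most 1 kb from a transcription start (TSS) of a protein-coding transcript of the gene, and a distal region one whose summit is more than 1 kb from every protein-coding TSS. The main list is the conservative one, which the depositors filtered by the irreproducible discovery rate (IDR), a measure of how well peaks rank alike in repeated calls, and each replicate also had its own IDR thresholded list and a longer pseudoreplicated list. Each value called signal is the number the authors deposited for the peak in column 7, whose scaling is not given in the sources used here, and a gene with several promoter peaks takes the highest. Peak lists hold no read counts, so the sequencing depth and the counting error of each signal are unknown. Replicate 1 gave the longer IDR list, with 34588 merged regions against 22434, and its promoter signals were higher, with a median of 10.8 against 8.01 over all genes with a promoter peak. Of 15 genes listed here as stem cell markers, 10 had a promoter peak in the conservative list, against 51.5% of all protein-coding genes. Kit, Cd34, Flt3 and Meis1 were among the 10, and Ly6a, Slamf1, Procr, Mecom and Gata2 were not. Of 10 granulocyte markers, 0 had one in the conservative list, 5 had one in replicate 1's IDR list and 0 in replicate 2's, with Elane, Mpo and Prtn3 without a peak in both. The counts were 3 of 8 for erythroid, 2 of 8 for B cell, 1 of 8 for T cell, 2 of 6 for muscle, 1 of 6 for neuron and 1 of 5 for liver markers in the conservative list.

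Glycolysis splits glucose in the cytosol into pyruvate, which lactate dehydrogenase turns into lactate or pyruvate dehydrogenase passes into the mitochondrion as acetyl-CoA for the TCA cycle. Resting haematopoietic stem cells are known for leaning on glycolysis and for keeping mitochondrial respiration low, and factors induced by low oxygen are known to drive several glycolytic genes through sites with the core letters ACGTG. An open promoter is permissive for transcription but does not measure it, and no RNA was measured here.

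The CG content of the promoters differed between several isoforms with and without a peak, and 2 such pairs are printed first. Each line gives the 120 bases before the RefSeq start of a gene, from RefSeq's GRCm38.p6 (mm10) sequence, in the direction of transcription, with each CG dinucleotide in capitals. Pgam1 and Eno1 encode the widely expressed phosphoglycerate mutase and enolase, and Pgam2 and Eno3 their muscle counterparts.
Pgam1 (chr19:41911751-41911870, plus strand): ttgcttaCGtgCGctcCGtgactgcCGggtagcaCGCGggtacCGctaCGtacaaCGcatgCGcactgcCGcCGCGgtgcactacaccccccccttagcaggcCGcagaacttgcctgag
Pgam2 (chr11:5803797-5803916, minus strand): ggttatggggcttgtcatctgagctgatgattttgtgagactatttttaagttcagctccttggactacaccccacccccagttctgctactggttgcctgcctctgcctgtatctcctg
Eno1 (chr4:150236588-150236707, plus strand): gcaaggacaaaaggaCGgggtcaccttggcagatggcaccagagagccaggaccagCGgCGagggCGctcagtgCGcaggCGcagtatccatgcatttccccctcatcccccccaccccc
Eno3 (chr11:70657056-70657175, plus strand): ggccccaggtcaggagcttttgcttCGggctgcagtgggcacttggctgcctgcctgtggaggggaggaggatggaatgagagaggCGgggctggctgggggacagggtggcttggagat
The stretch of Pgam1 held 14 CG dinucleotides and that of Pgam2 held 0, while Eno1 held 6 and Eno3 held 2. Pgam1 and Eno1 had a promoter peak in every list, and Pgam2 and Eno3 had none in any.

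The next 3 stretches are shown for the letters ACGTG, in capitals on either strand, at the promoters of the glucose transporter Slc2a1, the phosphoglycerate kinase Pgk1 and the lactate dehydrogenase Ldha. They were chosen for printing after the matches had been seen. CACGTG, the letters of the E-box read by MYC-type factors, contains ACGTG on both strands.
Slc2a1 (chr4:119108585-119108715, plus strand): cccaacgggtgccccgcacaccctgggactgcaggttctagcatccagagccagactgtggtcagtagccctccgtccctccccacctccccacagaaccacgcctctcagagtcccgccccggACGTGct
Pgk1 (chrX:106186940-106187099, plus strand): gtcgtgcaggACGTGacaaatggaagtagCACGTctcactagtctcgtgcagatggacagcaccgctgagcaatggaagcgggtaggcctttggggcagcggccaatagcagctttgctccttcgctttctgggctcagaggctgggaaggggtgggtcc
Ldha (chr7:46845644-46845803, plus strand): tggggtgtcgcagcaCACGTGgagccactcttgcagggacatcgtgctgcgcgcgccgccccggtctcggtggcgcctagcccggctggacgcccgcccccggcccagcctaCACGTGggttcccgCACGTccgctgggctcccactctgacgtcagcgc
The stretch of Slc2a1 held 1 capital run, that of Pgk1 held 2 and that of Ldha held 3, of which the first 2 were CACGTG. A match is a description of the letters and not a bound site.

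Last, 2 distal stretches are shown, each the summit with 100 bases on either side on the plus strand. The first lies in an intron of Slc2a1 and the second upstream of Pfkl, the liver-type phosphofructokinase that blood cells also use. Capitals mark, on either strand, the letters TGTGGT, of the type read by RUNX factors, and GAGGAAGT, of the PU.1 type, in the first, and AGATAA, of the type read by GATA factors, in the second.
Slc2a1 intron (chr4:119127318-119127518, plus strand): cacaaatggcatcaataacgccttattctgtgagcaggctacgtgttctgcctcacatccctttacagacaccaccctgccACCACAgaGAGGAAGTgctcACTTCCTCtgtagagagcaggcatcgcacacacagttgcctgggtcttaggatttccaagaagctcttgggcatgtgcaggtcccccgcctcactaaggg
Pfkl upstream (chr10:78018831-78019031, plus strand): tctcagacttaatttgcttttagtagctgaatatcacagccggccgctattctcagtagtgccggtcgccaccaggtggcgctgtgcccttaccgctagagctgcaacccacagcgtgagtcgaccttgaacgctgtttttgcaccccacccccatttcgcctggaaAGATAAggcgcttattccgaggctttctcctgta
The Slc2a1 window held 1 match to TGTGGT next to 2 to GAGGAAGT on opposite strands, and the Pfkl window held 1 match to AGATAA. Each window is marked only for those of the searched letters that it holds. The shares over all distal windows are given below.

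Nearly every gene of the list had an open promoter in these cells. A promoter peak was present at 33 of the 37 genes in the conservative list, against 51.5% of all protein-coding genes. The IDR list of replicate 1 had 32 of 37 against 52.0%, and that of replicate 2 had 31 of 37 against 45.6%. In the pseudoreplicated lists the count was 34 of 37 in both replicates, against 63.4% in replicate 1 and 61.8% in replicate 2. The lists that pooled both replicates gave 33 of 37 in the IDR thresholded one (56.0% of all genes), 34 in the replicated one (64.9%) and 34 in the pseudoreplicated one (66.0%). In all 8 lists the share of the 37 genes was above that of all genes. Widely expressed genes have open promoters in most cell types, so the count is set against all genes and not read as particular to stem cells.

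A peak was found at 31 of the 37 promoters in all 8 lists, and at 3, those of Pgam2, Eno3 and Pklr, in none. Hk3, the hexokinase of myeloid cells, had one only in the pseudoreplicated lists and the replicated list, with a signal of 4.02 in replicate 1 and 3.46 in replicate 2. Eno2, the neuronal enolase, had 5.05 in the conservative list, the lowest of the members there, and was in neither replicate's own IDR list. Dlat, the E2 subunit of pyruvate dehydrogenase, had 10.7 in the IDR list of replicate 1 and was in replicate 2 only in the pseudoreplicated list, at 5.24.

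**Figure D1:**
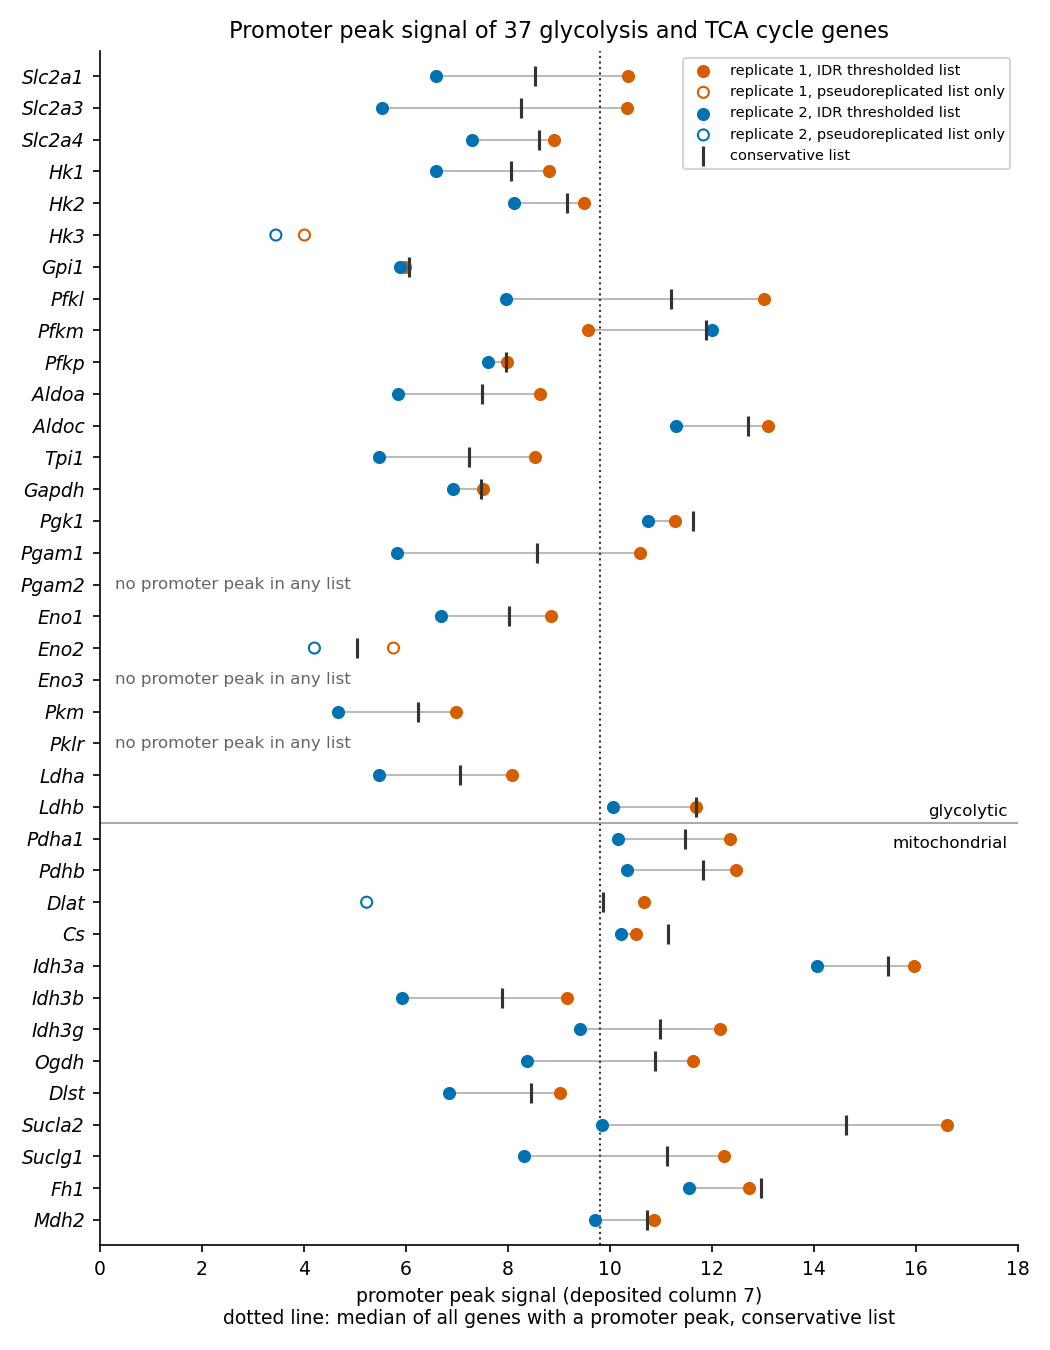
Promoter peak signal (horizontal axis, the deposited column 7) of each of the 37 genes (vertical axis). Filled points are each replicate's IDR thresholded list, open points a replicate in which the gene had a peak only in the pseudoreplicated list, each at the site of the conservative peak, and bars the conservative list, with the dotted line at 9.81, the median of all genes with a promoter peak there. Pgam2, Eno3 and Pklr have no point, and 30 of the 31 genes in both IDR lists were higher in replicate 1.

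The conservative signals of the members ran from 5.05 to 15.4 with a median of 9.17, against 9.81 over the 11258 genes with a promoter peak. Their peaks sat close to the annotated starts: 27 of the 33 summits were within 100 bp of a TSS, and the farthest, at Hk1, was 283 bp away. Replicate 1 gave the higher signal at 30 of 31 genes present in both IDR lists, against 95.2% of all genes, so replicate 1 was the higher library at nearly every promoter. Across those 31 genes the rank correlation between the replicates was 0.723, against 0.710 over 9665 genes. These points are genes of the same 2 libraries and are not independent. At Hk1, Pfkm and Sucla2 the highest peak of a replicate lay at another start site than the conservative one, and the values given below are those at the site of the conservative peak, where again 30 of 31 genes were higher in replicate 1.

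The glucose transporters came first in the pathway. Slc2a1, the widely expressed GLUT1, had a promoter signal of 8.53 in the conservative list (chr4:119108419-119109420), with 10.4 in replicate 1 and 6.61 in replicate 2. Slc2a3, the high-affinity GLUT3 of neurons and white cells, had 8.26 (chr6:122741942-122743087), with 10.3 and 5.53. Slc2a4, the insulin-responsive GLUT4 of muscle and fat, had 8.62 (chr11:69948086-69948621), with 8.91 and 7.30. The 3 transporters thus stood within the replicate spread of each other, with Slc2a4 the lowest in replicate 1 and the highest in replicate 2.

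Hexokinase traps glucose as glucose 6-phosphate. Hk1, the widely expressed form, had 8.06 in the conservative list, with 8.82 in replicate 1 and 6.60 in replicate 2 at the same site. Hk2, the inducible form, had 9.17, with 9.49 and 8.13. At these sites Hk2 was above Hk1 in both replicates. With the highest promoter peak of each gene, Hk1 had 8.15 in replicate 2, against 8.13 at Hk2, so their order there depends on the site. Both Hk1 and Hk2 were above Hk3 in each replicate. Gpi1, glucose-6-phosphate isomerase, had one of the lowest signals, 6.06, with 5.99 and 5.88, so that only 8.33% of all genes with a promoter peak were lower.

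Phosphofructokinase commits sugar to glycolysis, and its 3 subunits changed order between the replicates. Pfkl, the liver-type subunit, had 11.2 in the conservative list (chr10:78008967-78010172), with 13.0 in replicate 1 and 7.96 in replicate 2. Pfkm, the muscle-type subunit that red cells also use, had 11.9 (chr15:98108123-98109154), with 9.59 and 12.0. Unlike Pfkl, it was higher in replicate 2 at this site. Pfkp, the platelet-type subunit, had 7.96, with 7.99 and 7.62, and was the lowest of the 3 in both replicates. Pfkl was above Pfkm in replicate 1 and below it in replicate 2, so their order cannot be given.

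In the aldolases the order ran against the tissue labels. Aldoc, the aldolase of brain, had 12.7 in the conservative list (chr11:78322703-78323368), with 13.1 in replicate 1 and 11.3 in replicate 2, the highest glycolytic signal of the conservative list. Aldoa, the aldolase of muscle, red cells and most others, had 7.50 (chr7:126798628-126800004), with 8.64 and 5.86. The lower Aldoc value exceeded the higher Aldoa value, so the values of these genes did not overlap between the libraries. The symbol Aldoa belongs to more than 1 gene model in GENCODE M21, and the model that overlaps the RefSeq gene was used.

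The steps from triose phosphate to 3-phosphoglycerate have no tissue isoforms in the list. Tpi1, triosephosphate isomerase, had 7.25, with 8.54 in replicate 1 and 5.47 in replicate 2. Gapdh, glyceraldehyde-3-phosphate dehydrogenase, had 7.49, with 7.51 and 6.92. Pgk1, phosphoglycerate kinase, had 11.6, with 11.3 and 10.8. Pgk1 was above the other genes of these steps in both replicates, and all values of Tpi1 and Gapdh were below the median of all genes in the same list.

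At the mutase, enolase and pyruvate kinase steps the isoforms of other tissues had weak peaks or none. Pgam1 had 8.58 in the conservative list (chr19:41911557-41912315), with 10.6 in replicate 1 and 5.83 in replicate 2, and Pgam2 had no peak. Eno1 had 8.03 (chr4:150236565-150237539), with 8.86 and 6.70, while Eno2 had 5.76 and 4.21 in the pseudoreplicated lists and Eno3 no peak. Pkm, the M-type pyruvate kinase, had 6.24 (chr9:59655940-59656908), with 6.98 and 4.68, and Pklr, the form of liver and red cells, had no peak. The Eno1 values were above those of Eno2 in both libraries, although the signal of Pkm was itself among the lowest of the list, with 9.63% of all genes lower.

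Lactate dehydrogenase is built from A and B subunits, both found in blood cells. Ldha had 7.08 in the conservative list (chr7:46845585-46847297), with 8.09 in replicate 1 and 5.48 in replicate 2. Ldhb had 11.7 (chr6:142507214-142508359), with 11.7 and 10.1. The B subunit gene was the higher in both libraries, and the lower Ldhb value exceeded the higher Ldha value.

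Over the isoform families, 12 of 13 isoforms of blood had a promoter peak in the conservative list and in each replicate's IDR list, Hk3 being the exception, and 13 of 13 in the pseudoreplicated lists. Of the 7 isoforms of other tissues, 4 had one in the conservative list, namely Slc2a4, Pfkm, Aldoc and Eno2, and 3 in each replicate's IDR list. Both shares stood beside 51.5% of all genes in the conservative list. With only regions above the median signal of that list, the counts were 5 of 13 for blood and 3 of 7 for other tissues, beside 35.0% of all genes. The larger share of blood isoforms was thus not seen among the stronger regions. Where a peak was present, the median was 10.3 over 4 isoforms of other tissues against 8.16 over 12 of blood. The 4 values were far apart, with Eno2 at 5.05, Slc2a4 at 8.62, Pfkm at 11.9 and Aldoc at 12.7. Those of blood ran from 6.24 to 11.7, so the groups overlapped, and the 3 genes without a peak do not enter the median. The tissue classes come from textbook knowledge, and without Pfkm and Pklr, which red cells also use, the count for other tissues was 3 of the remaining 5. In bulk samples, a weak peak in all cells and a strong peak in a few cells cannot be told apart. Some granulocyte markers had peaks in the IDR list of replicate 1 and none in that of replicate 2. The promoter peak of the myeloid Hk3 was in the pseudoreplicated lists of both replicates. The part of granulocytes in its signal was not tested.

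**Figure D2:**
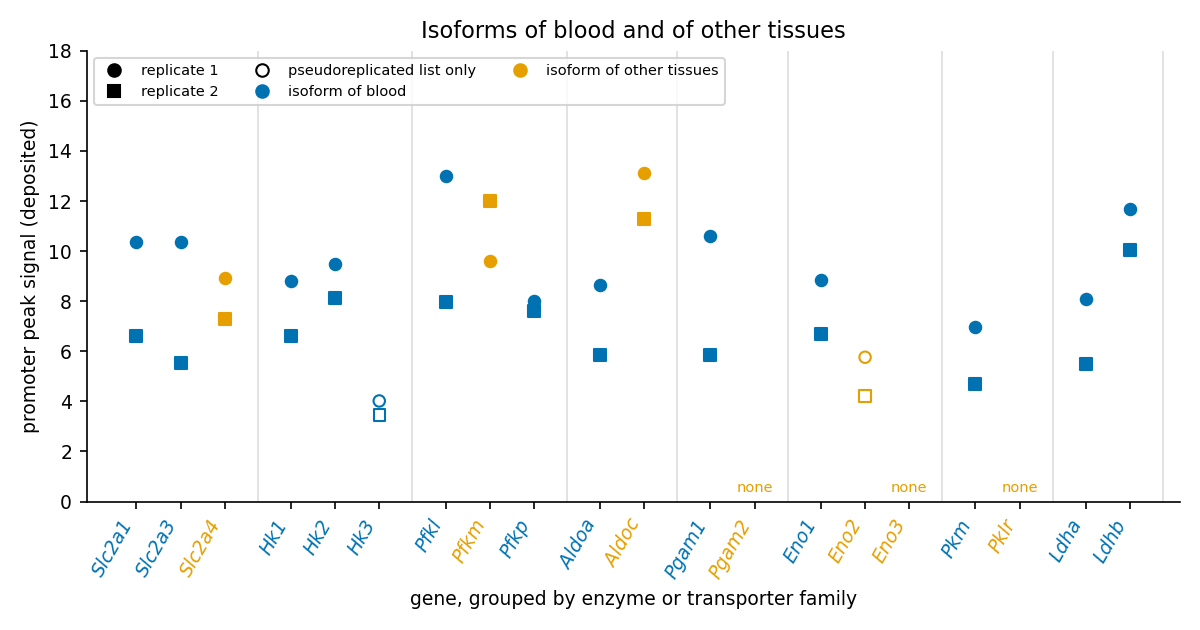
Promoter peak signal (vertical axis) of the 20 genes that belong to families with isoforms, grouped by family, with isoforms of blood in blue and of other tissues in orange. Circles are replicate 1 and squares replicate 2 at the site of the conservative peak, open symbols a peak in the pseudoreplicated list only, and none marks a gene with no promoter peak. Aldoc lies above Aldoa, while Pfkl and Pfkm change order between the replicates.

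The genes of pyruvate dehydrogenase, the gate from glycolysis to the cycle, were above the median of all genes in the conservative list. Pdha1, its E1 alpha subunit, had 11.5 in the conservative list, with 12.4 in replicate 1 and 10.2 in replicate 2. Pdhb, the E1 beta subunit, had 11.8, with 12.5 and 10.3. Dlat was at 9.87, just above the median of 9.81, and was the member of the complex missing from the IDR list of replicate 2.

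All 10 genes of the TCA cycle had a promoter peak in the conservative list and in each replicate's IDR list. Cs, citrate synthase, had 11.1, with 10.5 in replicate 1 and 10.2 in replicate 2. Isocitrate dehydrogenase spanned the range of the cycle. Its catalytic subunit gene Idh3a had 15.4 (chr9:54586007-54586766), with 15.96 and 14.1, and 96.8% of all genes were lower in the conservative list. Its beta subunit gene Idh3b had 7.89, with 9.17 and 5.94, the lowest of the mitochondrial members there. The gamma subunit gene Idh3g had 11.0, with 12.2 and 9.41, at a summit it shares with a start of Ssr4, so this signal cannot be given to 1 gene. The catalytic subunit thus had the highest conservative promoter signal of the 37 genes and the beta subunit the lowest of the cycle.

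Ogdh and Dlst, the E1 and E2 subunits of 2-oxoglutarate dehydrogenase, had 10.9 (11.6 in replicate 1 and 8.38 in replicate 2) and 8.46 (9.04 and 6.84). Succinyl-CoA ligase makes ATP or GTP within the cycle. Sucla2, its ADP-forming beta subunit, had 14.6 (chr14:73552447-73553268), with 16.6 and 9.85, and Suclg1, its alpha subunit, had 11.1, with 12.2 and 8.32. Fh1, fumarase, had 13.0, with 12.7 and 11.6. Mdh2, mitochondrial malate dehydrogenase, had 10.7, with 10.9 and 9.72, at a summit shared with a start of Styxl1. Dlst was below the other genes of these steps in both libraries.

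As a group the mitochondrial genes had the stronger promoter signals. In the conservative list 13 of 13 had a promoter peak, with a median of 11.1 (range 7.89 to 15.4), and 11 of the 13 were above the median of all genes. Of the 24 glycolytic genes 20 had one, with a median of 8.16 (range 5.05 to 12.7), and 5 of the 20 were above that median. Against the quartiles of all genes, 7.72 and 11.9, 7 glycolytic and 0 mitochondrial genes were below the lower one, and 2 glycolytic and 3 mitochondrial genes above the upper one. The groups overlapped, and their order was the same in each replicate: 12.2 against 8.91 in replicate 1, where all genes had 10.8, and 9.78 against 6.93 in replicate 2, where all genes had 8.01. With each replicate read at the site of the conservative peak, the glycolytic median of replicate 2 was 6.70 and the other 3 medians were as given. Genes are not replicates of a condition, so no test was made.

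**Figure D3:**
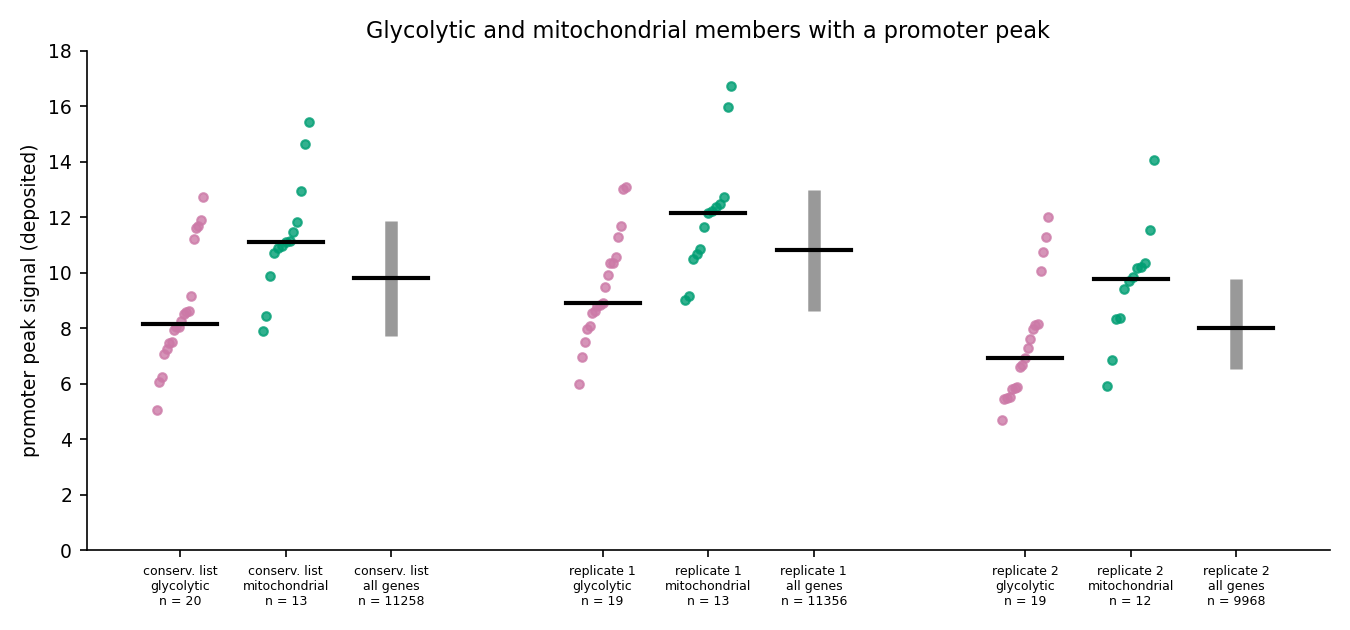
Promoter peak signal (vertical axis) of the glycolytic (pink) and mitochondrial (green) genes with a promoter peak in the conservative list and in each replicate's IDR thresholded list. Each point is a gene, black lines are medians, and grey bars span the quartiles of all protein-coding genes with a promoter peak. The mitochondrial median lies above that of all genes and the glycolytic median below it in each of the 3 lists.

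Many of these genes have more than 1 annotated start site, and the peaks fell at some of them. With TSS less than 1 kb apart taken as 1 site, 16 members had more than 1, together 42 sites, of which 20 had a peak in the conservative list. At 10 of the 16 genes exactly 1 site had a conservative peak, although at 3 of these, Tpi1, Eno1 and Pkm, the second site had one in a single replicate's IDR list, with 3.88 in replicate 2, 5.05 in replicate 1 and 4.52 in replicate 2. At Ldha it was the second, 4364 bp beyond the first, which had no peak in any list. Hk1 had 8 sites over 61515 bp and peaks at 2 of them, the sixth with 8.06 (8.82 in replicate 1 and 6.60 in replicate 2) and the seventh with 7.71 (7.89 and 8.15), while its first 5 sites had none in any list. Slc2a3 had 5.52 at its 5′-most site and 8.26 at the site 58720 bp on. The peaks of Hk1 and Ldha therefore lay away from the 5′-most TSS, as did that of Aldoa, whose summit was 1454 bp beyond its first TSS.

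The other genes with peaks at more than 1 site were Hk2, Pfkm and Sucla2. Sucla2 had 13.2 at its first site (16.7 in replicate 1 and 8.62 in replicate 2) and 14.6 at the site 27346 bp on (16.6 and 9.85). Pfkm had 9.55 at its first site, at a summit within 1 kb of a start of Senp1, and 11.9 at the site 15877 bp on, where the replicates gave 9.59 and 12.0. Hk2 had 9.17 at its first site and 3.91 at the site 1091 bp on. The remaining genes with more than 1 site, Gpi1, Pfkp, Aldoc, Tpi1, Eno1, Eno2, Pkm, Ldhb and Fh1, had a conservative peak at the first site alone, and Eno3 had none at either.

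**Figure D4:**
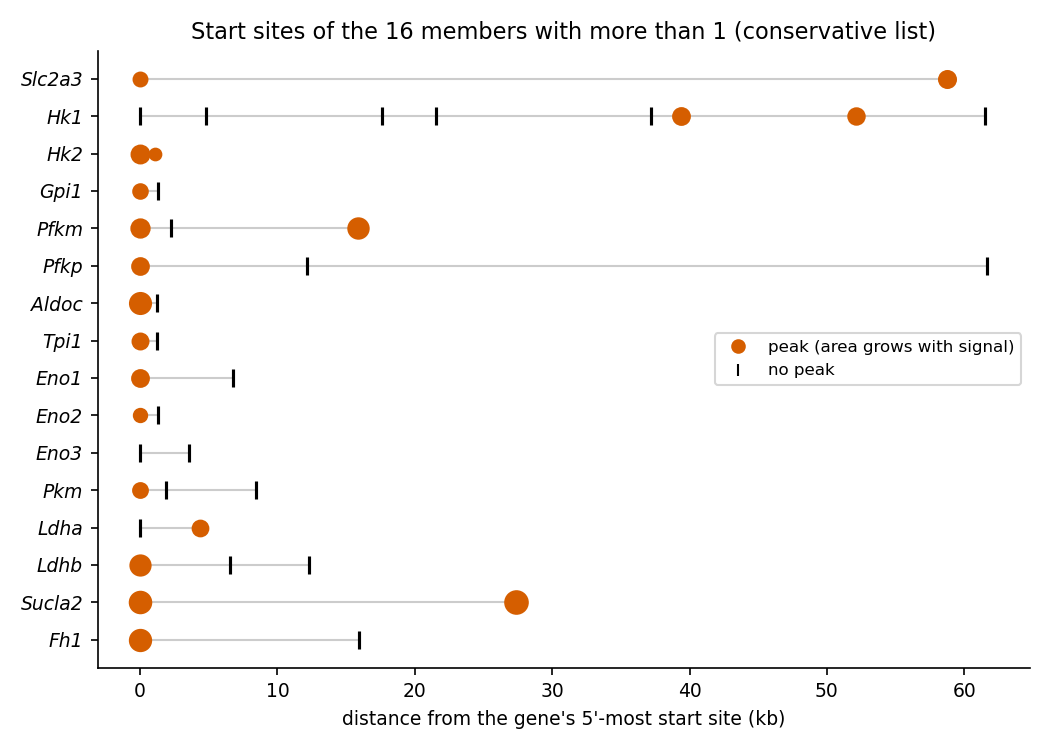
Start sites of the 16 members with more than 1, placed by distance in kb from the 5′-most site of the gene (horizontal axis). Orange circles are sites with a peak in the conservative list, with area growing with the signal, and black ticks are sites without one. Hk1, Ldha and Eno3 have no peak at the first site, and Eno3 has none at its other site.

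The printed pairs above were part of a wider difference in CpG content. Of the 37 genes, 34 matched RefSeq's promoter table, each by its 5′-most entry of 300 bases, and Slc2a3, Slc2a4 and Idh3a had no entry. The ratio of observed to expected CG dinucleotides, near 1 in CpG islands, had a median of 0.695 over these 34 genes against 0.599 over 16515 genes. It was 0.870 over 12 mitochondrial genes, with none below 0.641, and 0.615 over 22 glycolytic genes. Isoforms of blood had 0.687 and isoforms of other tissues 0.248. The 4 genes without a conservative promoter peak had the low values 0.0469 at Pgam2, 0.129 at Eno3, 0.158 at Pklr and 0.407 at Hk3. A low ratio did not always go with an absent peak, since Aldoc had 0.338 and a signal of 12.7. The entries of Aldoa, Hk1 and Pfkm, at 0.00, 0.0507 and 0.397, lie outside their conservative promoter peaks. All 3 enter the glycolytic median and the motif counts with those entries. Aldoa and Hk1 also enter the median for blood, and Pfkm that for other tissues.

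Of the motif letters searched on both strands of these 300 bases, ACGTG was found at 12 of 34 members (35.3%) against 21% of all promoters. It was at 9 of 22 glycolytic promoters (40.9%), Slc2a1, Hk2, Hk3, Pfkm, Aldoc, Gapdh, Pgk1, Pgam1 and Ldha, and at 3 of 12 mitochondrial ones, Pdhb, Idh3g and Ogdh. CACGTG, which lies over ACGTG, was at 2 of 34 (5.88%) against 8.12%, those of Ldha and Pfkm. GGGCGG, read by SP and KLF factors, was at 55.9% against 48.0%, CCAAT at 41.2% against 38.8%, CCGGAAG (ETS) at 11.8% against 12.3%, GCGCATGC (NRF1) at 2.94% against 3.75% and TATAAA at 5.88% against 12.8%. The share for ACGTG was the one farthest above that of all promoters, and with so few promoters each share moves by several percentage points per gene. Hk3 had ACGTG without a conservative peak.

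Distal open chromatin was unevenly spread over the pathway. A distal region within 50 kb of a TSS was present at 30 of 37 members in the conservative list against 61.9% of all genes, at 34 in replicate 1 against 64.3%, and at 23 in replicate 2 against 49.4%. With a region counted for each gene it is near, the mean was 2.05 per member against 1.45 over all genes, and with each of the 73 regions counted once it was 1.97 per member. Glycolytic members had 60 of them and mitochondrial members 13. With a region counted for each gene it is near, the means were 2.625 over 24 glycolytic and 1.00 over 13 mitochondrial genes. The group with the lower promoter signals thus had the more distal regions, while Pdha1, Pdhb, Idh3a and Sucla2 among the mitochondrial genes and Pfkm, Gapdh and Pgk1 among the glycolytic ones had none. Slc2a3 had the most, with 6, followed by Hk2, Tpi1, Eno1 and Eno2 with 5. Regions were counted around every start site, so a gene with starts far apart was searched over a longer stretch. The sites of Slc2a3 spanned 58720 bp and those of Hk1 61515 bp. Among the mitochondrial genes, only Sucla2 and Fh1 had several start sites. The part of this in the counts was not tested. Tpi1 and Eno2 are neighbours and shared 3 of their regions.

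Distance alone does not tie a region to a gene, and for 35 of the 73 regions the nearest protein-coding TSS was a member's, 31 of them at glycolytic and 4 at mitochondrial genes. By position 35 regions were intronic, 15 of these in the member's own intron, 7 were exonic and 31 intergenic. The median signal was 7.72 against 7.96 over all 20306 distal regions. Of the 73, 35 (47.9%) were in both replicates' IDR lists, against 50.2% of all distal regions, 27 in replicate 1 alone, 5 in replicate 2 alone and 6 in neither.

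**Figure D5:**
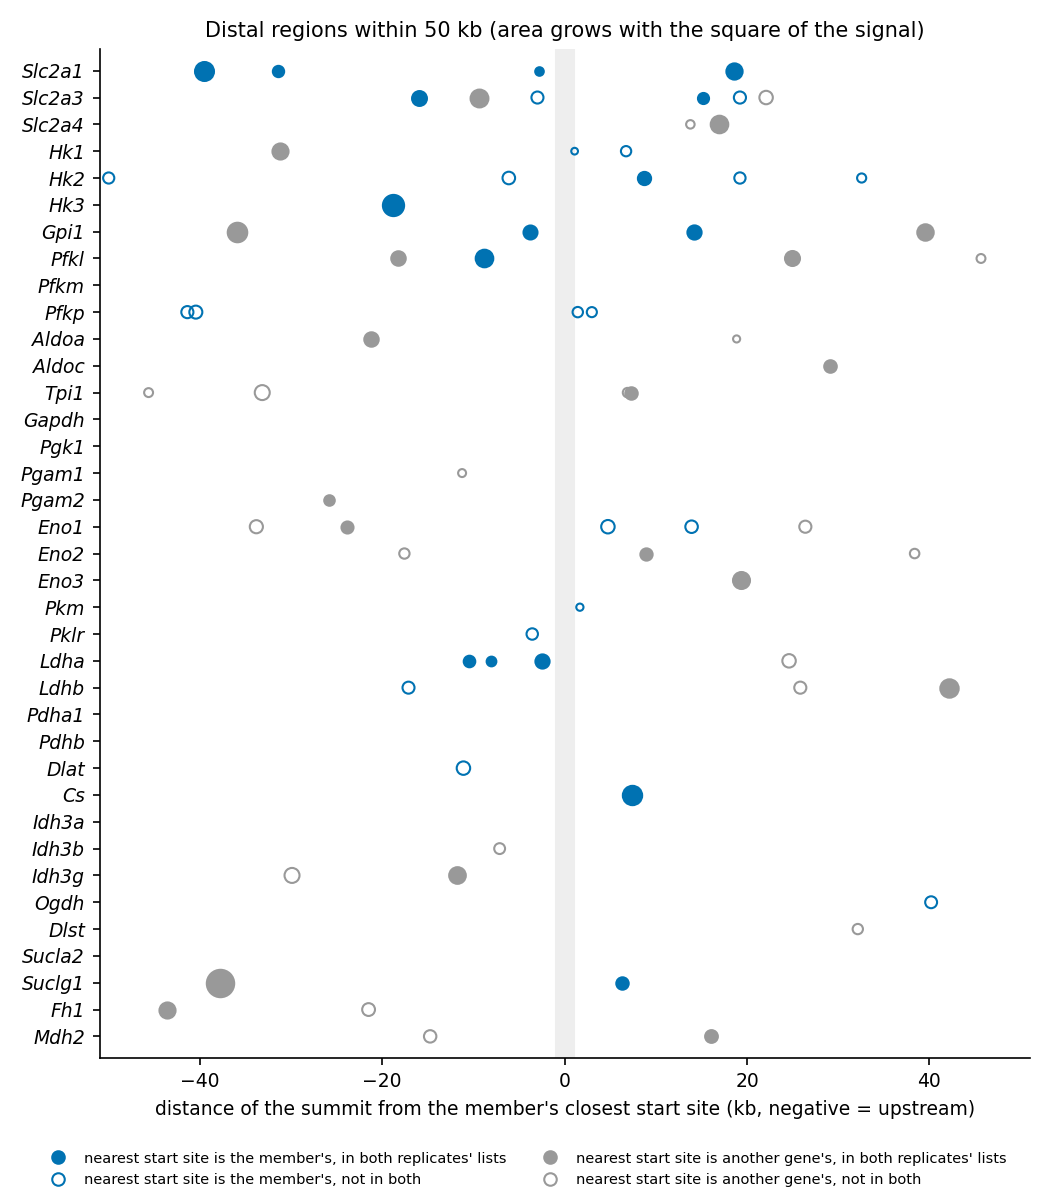
Distal regions within 50 kb of each member, by the distance of the summit in kb from the closest start site of the member (horizontal axis, negative is upstream). Blue marks regions whose nearest protein-coding start site is the member's, grey those nearer to another gene, filled circles regions in both replicates' IDR lists, and circle area grows with the square of the signal. The glycolytic genes in the upper rows hold 60 of the 73 regions.

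The 5 distal regions of highest signal were spread over 5 genes. The highest, 16.97 in the conservative list with 17.1 in replicate 1 and 13.5 in replicate 2, lay 37752 bp upstream of Suclg1 in an intron of Dnah6 (chr6:73210381-73211229), whose start was nearer. The second, 13.1, lay 18856 bp upstream of Hk3 in an intron of Uimc1 (chr13:55040049-55040665) and had Hk3 as its nearest TSS. Its signal was 17.4 in replicate 1 and 7.14 in replicate 2, a wide gap that stands beside the granulocyte marker peaks of replicate 1, whose part in it was not tested. The third, 12.1, was 35909 bp upstream of Gpi1 in an intron of 4931406P16Rik, with 13.8 in replicate 1 and 7.91 in replicate 2. A start of Gm6096 was nearer to it, at 15207 bp. The fourth, 12.0, was in the own intron of Cs, 7339 bp from the start (chr10:128344585-128345372), with 12.1 and 9.001. The fifth, 11.7, was intergenic, 39572 bp upstream of Slc2a1 (chr4:119068902-119069279), with 10.5 and 10.4. Hk3 thus had the weakest promoter of the blood isoforms and a distal region among the strongest in the conservative list and in replicate 1. In replicate 2 that region, at 7.14, was near the median of 6.90 over all distal regions of its IDR list.

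In both replicates' IDR lists and nearest to a member were 16 regions at 9 genes. Distances run from the closest TSS of the gene, whether or not it had a peak. Slc2a1 had 4 of them: the region just named, one of 6.997 at 31426 bp upstream (7.79 in replicate 1 and 5.25 in replicate 2), one of 5.30 at 2771 bp upstream (5.80 and 4.38), and the intronic one printed above, of 10.04 at 18549 bp downstream of the start (chr4:119126892-119127719), with 10.3 and 9.18. The intronic region and the farthest upstream region of Slc2a1 had higher conservative signals than its promoter, as in replicate 2, while in replicate 1 the 3 signals were nearly equal. Ldha had 3 upstream regions, of 8.79 at 2484 bp (8.11 and 8.63), 6.02 at 8039 bp (6.31 and 4.69) and 7.16 at 10476 bp (8.77 and 5.18). These distances are to its first start site, which had no peak, and its promoter peak lay farther from the regions. Slc2a3 had 2, both in its introns, of 9.22 (8.89 and 8.75) at chr6:122758580-122759094 and of 6.87 (7.20 and 5.38) at chr6:122786322-122786614.

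Gpi1 also had 2, of 8.68 at 3824 bp upstream (8.84 in replicate 1 and 7.09 in replicate 2) and of 8.79 in its own intron at 14164 bp (11.1 and 4.99). The intronic distance is from a start site of Gpi1 that had no peak in any list. Pfkl had the upstream region printed above, of 10.9 at 8848 bp (chr10:78018786-78019227), with 11.6 and 7.14. Hk2 had a region of 8.18 at 8680 bp downstream of its closest start, which is not its first, in an exon of the model Gm17034, with 10.04 and 5.29. Suclg1 had an intronic region of 7.68 at 6287 bp, with 8.88 and 6.25. With those of Hk3 and Cs given above, the mitochondrial genes among the 9 were Cs and Suclg1.

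The motif letters were also searched in the 201 bases around each distal summit. AGATAA was in 5 of 73 windows (6.85%) against 8.71% of all distal windows, TGTGGT in 21 (28.8%) against 30.4%, GAGGAAGT in 9 (12.3%) against 10.4%, CCGGAAG in 2 (2.74%) against 3.15% and CACGTG in 6 (8.22%) against 4.78%. The share for CACGTG rests on those 6 windows, and the shares for the other letters lay closer to those of all windows. The sequences of the 33 promoter regions and the 73 distal regions were searched against the genome, and 0 of either kind matched another place on an assembled chromosome at 90% identity over 50% of their length.

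The rest of the pathway was also mostly open. Of 40 further genes of glucose and pyruvate metabolism and the cycle, 31 (77.5%) had a promoter peak in the conservative list, against 51.5% of all genes. Their median was 10.9, above the 9.17 of the members, and 23 were above the median of all genes. The highest were Dld, the E3 subunit shared by the dehydrogenase complexes, with 16.2 (17.1 in replicate 1 and 12.9 in replicate 2), Tigar, a fructose bisphosphatase-type regulator, with 15.1 (16.01 and 12.2), and Sdhc, a subunit of succinate dehydrogenase, with 14.1 (15.3 and 8.63). Those without a peak included Hkdc1, the germ cell enzymes Gapdhs, Pgk2 and Ldhc, the transporter Slc2a2 of liver and pancreatic islets, the bisphosphatase Fbp2 of muscle, the gluconeogenic Pck1 and the cytosolic malic enzyme Me1. Me1 had a peak in both pseudoreplicated lists, with 7.24 in replicate 1 and 4.28 in replicate 2, and the others named here had none in any list.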

How the data were processed

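ATAC-seq was measured in 2 libraries of haematopoietic stem cells from C57BL/6J mice, in 1 group. The authors deposited peak lists in mm10 coordinates with a signal per peak in column 7, per the labels for the build and the narrowPeak layout of the lists for the column. For the aligner, the peak caller, any shift of reads for the transposase cut and the scaling of the signal, the entry is: not given in the sources used here. The conservative, replicated and other series lists combine both replicates, and each replicate has its own IDR thresholded and pseudoreplicated list. Overlapping peaks were merged into regions that keep the highest signal and its summit, and regions were assigned to protein-coding transcript starts of GENCODE M21 on 21 chromosomes (Python 3.11.15, pandas 2.3.3). Assignment was tested on simulated data. Sequences came from RefSeq GRCm38.p6 and repeats were sought with blastn 2.17.0 at an e-value of 1e-10. The named items are all 37 members, the 3 other pathway genes of highest signal and all without a conservative peak, the 5 distal regions of highest signal, and all distal regions nearest to a member in both IDR lists. An item under this rule is not reported here. The members and lists were chosen with earlier results of these data known. With 1 group no test was made. The alternatives were other lists, either replicate left out, stronger regions, other windows and distances, and other assignment rules.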

Additional observations from a re-analysis of the deposited data

How the results depend on the processing

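No paired analysis was possible because there is 1 group. The counts at promoters kept within 1.5 times the reported ones under all alternatives but one: with only regions above the median signal of the list, 21 members and 5 isoforms of blood had a promoter peak, when 35.0% of all genes did. In that setting 3 of the 7 isoforms of other tissues had one, beside the 5 of 13 of blood, so the share of blood isoforms was not the larger there. Isoforms of other tissues ranged from 3 to 4 and other pathway genes from 26 to 32 over the alternatives. Without replicate 1 or replicate 2 the members with a promoter peak were 31 and 32, and the median promoter signal of members was 8.13 and 10.4. With the 5′-most TSS only, 30 members had one, Hk1, Aldoa and Ldha being lost.

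Distal counts moved more. The 73 regions became 183 in the replicated list, 210 in the pseudoreplicated list of both replicates, 25 above the median signal, 43 within 20 kb, 134 within 100 kb and 35 where the nearest TSS had to be the member's; leaving out a replicate gave 44 (without replicate 1) and 88 (without replicate 2). The 30 members with a distal region became 17 above the median signal (38.8% of all genes) and 17 with the nearest TSS the member's (37.2%), and 23 (49.4%) and 34 (64.3%) without replicate 1 and without replicate 2. The lists hold no read counts, so depth could not be used to judge a missing peak.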
